A study of Mus musculus with 56 samples.

Results

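Proteases and protease inhibitors were followed in keratinocytes of the mouse, which make up most of the epidermis, after exposure to transforming growth factor β1 (TGF-β1). Members were matched by gene symbol, and no measured value entered the match. The choice itself was made with earlier results of these data known. It took in serpins, cathepsins, cystatins, matrix metalloproteinases (MMPs), ADAM and ADAMTS metalloproteinases, and kallikreins and other serine proteases. Kunitz and WAP type inhibitors, the tissue plasminogen activator gene Plat, the urokinase receptor gene Plaur, and proprotein convertases were also taken. Of 83 matching symbols 4 were left out by the rule (Serpinb2, Serpinh1, Timp1 and Mmp2). The remaining 79 genes, measured on 82 probes, are set against 8905 features in all, 6795 of them named genes. They comprise 13 serpins, 13 cathepsins, 10 ADAM genes, 9 MMPs, 7 kallikreins, 7 Prss genes, 6 ADAMTS or ADAMTS-like genes, 4 cystatins, 4 Kunitz or WAP inhibitors (Slpi, Spint1, Spint2 and Tfpi), and 2 each of the membrane serine proteases (Tmprss2 and Tmprss4), the plasminogen activation genes and the convertase genes (Pcsk1n and Pcsk5).

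Each array carried RNA of TGF-β1 treated cells (1 ng/ml) beside RNA of matching untreated cells, and gave 1 log2 ratio per probe. Primary keratinocytes came from newborn Balb/c mice, and ras keratinocytes were the same cells after transduction with a replication-defective retrovirus carrying Ha-ras. Both were treated for 1, 6, 24 or 48 h. The primary arrays numbered 6, 7, 6 and 3 at these times, and the ras arrays 6, 7, 6 and 4. Keratinocytes of Smad3+/+ (wild type) and Smad3-/- (knockout) mice, with the strain label C57B1/SVJ, were treated for 48 h as primary and as ras cells, with 1 array for each genotype and cell type. Smad3 is one of the transcription factors that carry the TGF-β signal to the nucleus. A further 7 arrays with the dyes reversed were left out of the main values because it is not stated whether their sign had been turned, and their values are given as deposited. A positive value means more RNA after TGF-β1, a direction that is likely from the channel order. All arrays in the main values carry treated RNA in the same dye, so a dye effect of a gene is part of each response. A constant dye effect cancels only in differences between groups. Rose and fell are used here for called responses with this limit. The labels do not name separate cultures for the arrays, so p-values may measure only technical spread.

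Secreted and surface proteases cut matrix proteins, growth factors and one another, and inhibitors set how far they act. MMPs and ADAMTS proteases are zinc enzymes of the extracellular matrix, ADAMs shed membrane proteins, cathepsins work mainly in lysosomes, and kallikreins cut the junctions that hold the outermost epidermal cells together. Serpins trap serine proteases by a suicide mechanism, although several of the family have other functions, and cystatins block cysteine cathepsins. TGF-β is known to shift this balance in epithelia and fibroblasts during wound repair and tumour invasion.

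Calls among the members were most at 48 h in primary cells, with 0, 0, 3 and 14 over the 4 times, and at 24 h in ras cells, with 0, 4, 10 and 4. At 1 h none of the 79 was called (limma, Benjamini-Hochberg adjusted p under 0.05 over all features) in either cell type, where 0.0112% of all features were called in primary and 0.0786% in ras cells. Unadjusted p under 0.05 was reached at 1 h by 5 members in primary cells (beside 5.37% of all features) and 8 in ras cells (7.03%). At 6 h 0 members were called in primary cells (0.0112% of all features, with 12 members and 9.42% of all features at an unadjusted p under 0.05). In ras cells 2 rose and 2 fell (1.73% of all features, 1.36% higher and 0.371% lower). At 24 h 3 fell in primary cells (1.36% of all features, 1.01% lower), and 3 rose and 7 fell in ras cells (10.5%, 3.84% higher and 6.67% lower). At 48 h 11 rose and 3 fell in primary cells, which is 17.7% of the members beside 8.6% of all features (5.11% higher and 3.49% lower). In ras cells 3 rose and 1 fell, 5.06% beside 3.5% (1.9% higher and 1.61% lower). In ras cells at 24 h the members' 12.7% was close to the background.

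In all, 24 members were called in at least 1 of the 8 responses, 30.4% beside 20.7% of all features. Of these 7 were called in more than 1 (8.86%, beside 3.55% of all features), and 55 members were called in none. No member both rose and fell at different times within a cell type. Over all 79 the median response stayed near 0, at 0.01 in primary and -0.16 in ras cells at 48 h, beside -0.05 and -0.02 over all features. Among the 55 without a called response, mean responses ran from -1.97 to 1.38, and 22 stayed under 0.5 in size at all times.

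**Figure D1:**
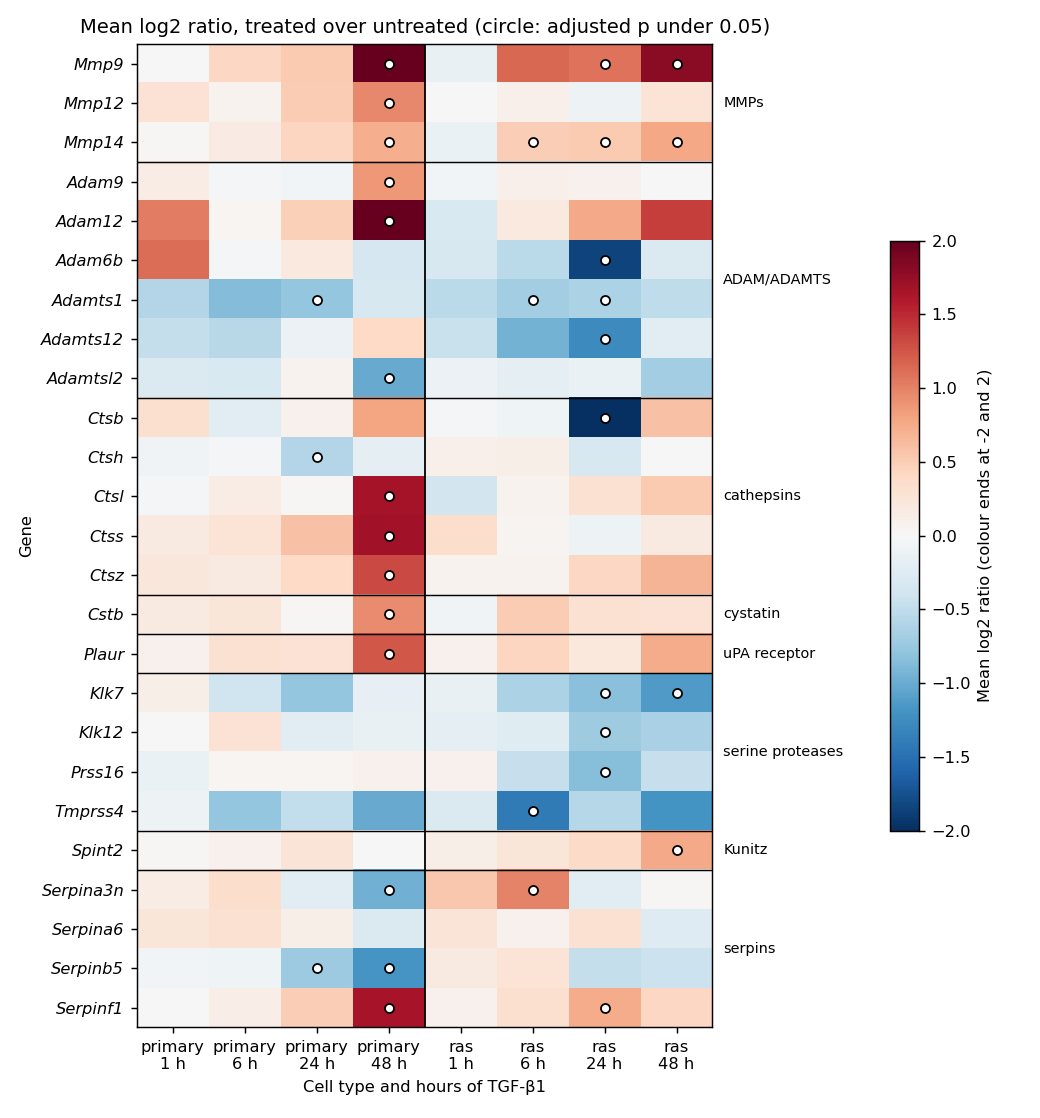
Mean log2 ratio (colour, treated over untreated) of the 25 members called in any comparison, by role (rows), in primary and ras keratinocytes after 1, 6, 24 and 48 h of TGF-β1 (columns). White circles mark responses with an adjusted p under 0.05. The primary 48 h column holds 14 of the 35 circles, 11 of them on rises.

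These calls rest on few arrays, with 1 spread estimated over the 12 groups. When the primary 48 h group was fitted from its 3 arrays by themselves, it gave 0 calls among members (adjusted p from 0.0878 for Mmp9 to 0.237 for Serpina3n among its 14). Its count of 14 was 8 without primary 48 h replicate 1 and 7 without replicate 2. The ras 24 h count of 10 was 0 without its replicate 1, the widest array of the series (SD 1.81), 4 without replicate 7, and 3 with array weights. The ras 48 h count of 4 was 0 without replicate 1 and 2 without replicate 3. At ras 6 h the count of 4 was 1 without any of replicates 1, 3, 4 and 7, 2 without replicate 2 or 8, and 16 with array weights. The primary 24 h count of 3 was 1 without replicate 1 or 6 and 8 with array weights.

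The reversed arrays bear on these calls because they were not used in making them. On both reversed primary 48 h arrays, 12 of the 14 called members had the sign opposite to the forward arrays as deposited, and Cstb and Adamtsl2 did not. Over all 766 features called there the share opposite on both was 46.9%. On the reversed ras 6 h array all 4 called members were opposite, beside 92.9% of all called features, on the ras 24 h array 3 of 10, beside 46.3%, and on the ras 48 h array 2 of 4, beside 40.1%. A change in RNA gives the opposite sign on a reversed array where the deposited sign had not been turned. Which arrays had been turned is not stated. Clu, no member, was positive on the forward arrays at 24 and 48 h. On the reversed Balb/c ones it read -2.41 (ras 24 h), -2.18 and -1.71 (primary 48 h) and -0.57 (ras 48 h). Skil, no member and positive on the forward 48 h arrays, read 0.61 and -0.28 (primary) and -0.08 (ras). Fits of reversed arrays as deposited assume a sign already turned.

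Among the MMPs the gelatinase gene Mmp9, whose product cuts denatured collagen and basement membrane, had the largest rise of any member. In primary cells at 48 h its log2 ratios were 2.37, 3.53 and 2.32, with a mean of 2.74 (SD 0.68, SE of the fit 0.52, n = 3, adjusted p = 0.000388), a 6.67-fold rise. Among the earlier primary arrays replicate 6 at 24 h was as high, with 2.40. At 1, 6 and 24 h the primary medians were -0.15, 0.33 and 0.23, and no call was made. The 2 reversed arrays at 48 h gave -3.16 and -1.35 as deposited. This call held without each single array (adjusted p up to 0.0261).

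In ras cells Mmp9 was positive on all 7 arrays already at 6 h, from 0.15 to 2.29 with a median of 1.42 (mean 1.15, adjusted p = 0.0754, and 0.000512 with array weights or 0.0361 on its own 7 arrays). At 24 h it ran from -0.35 to 2.37 with a median of 1.21 (mean 1.08, SE 0.37, n = 6, adjusted p = 0.0497), a call that ended without any of replicates 1, 5, 6 and 7 (adjusted p up to 0.207). At 48 h the values were 2.07, -0.35, 4.48 and 1.02 (mean 1.81, SE 0.45, n = 4, adjusted p = 0.0185). These 4 arrays spread more widely than the primary arrays, replicate 2 was below 0, and leaving out replicate 1 or 3 ended the call (adjusted p up to 0.363).

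Mmp14, which encodes a membrane-anchored MMP that activates other MMPs at the cell surface, had the most calls of the family, 1 in primary and 3 in ras cells. At primary 48 h it read 0.95, 0.90 and 0.33 (mean 0.73, SE 0.205, adjusted p = 0.019). In ras cells it was positive on all 7 arrays at 6 h (0.24 to 0.74, median 0.48, mean 0.49, SE 0.13, adjusted p = 0.0443), on 5 of 6 at 24 h (-0.27 to 0.90, median 0.64, mean 0.52, SE 0.145, adjusted p = 0.0192) and on all 4 at 48 h, with 1.29, 0.54, 0.98 and 0.26 (mean 0.77, SE 0.18, adjusted p = 0.0117). The rises were small and alike in size, and each ended without at least 1 array: replicate 1 or 2 in primary 48 h (adjusted p up to 0.211), each of the 7 at ras 6 h (up to 0.167), replicates 1, 2, 6 or 7 at ras 24 h (up to 0.0618), and replicate 1 or 3 at ras 48 h (up to 0.177).

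Mmp12, the macrophage elastase gene, rose only in the primary 48 h arrays among the 8 responses, with 0.52, 1.81 and 0.55 (mean 0.96, SE 0.29, adjusted p = 0.0282). Replicate 2 stood above the others, and without it the mean was 0.54 (adjusted p = 0.53). The other 6 MMPs (Mmp7, Mmp11, Mmp16, Mmp17, Mmp23 and Mmp27) were not called. At 24 h in primary cells all 9 MMPs had positive means, from 0.09 to 0.60 with a median of 0.44, and 0 were called. Of all 79 members 44 had positive means there. In ras cells 4 of the 9 MMPs had positive means at 24 h and 3 at 48 h. The share of all features with a positive mean was not counted.

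**Figure D2:**
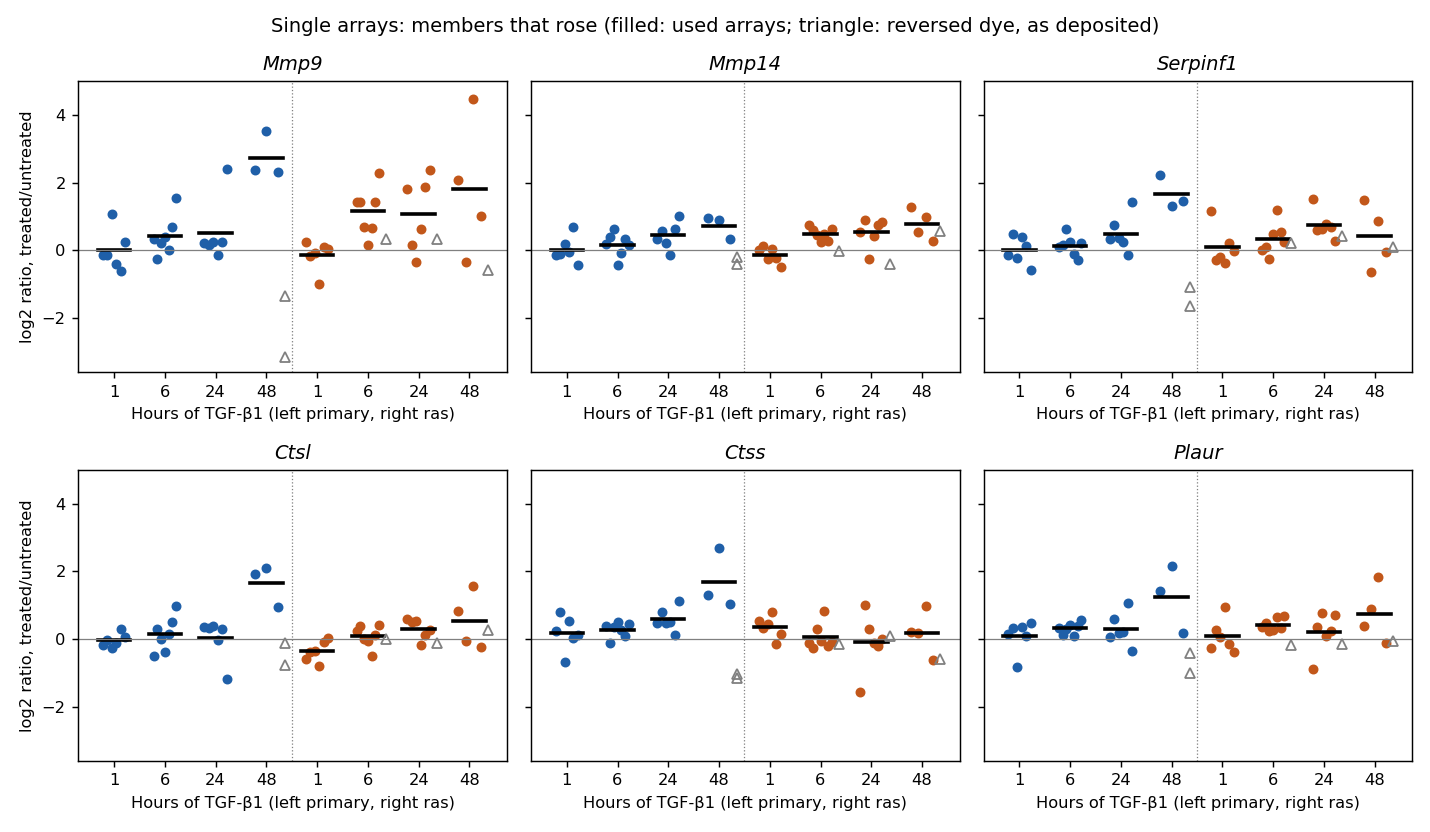
Log2 ratios of single arrays for Mmp9, Mmp14, Serpinf1, Ctsl, Ctss and Plaur by hours of TGF-β1 in primary (blue) and ras (orange) keratinocytes. Filled points are arrays in use, bars their mean, and open triangles arrays with reversed dyes as deposited. All 3 primary 48 h points lie above 0 in every panel, and the 2 triangles beside them lie below 0.

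Among the ADAM genes the 2 that rose did so in primary cells at 48 h. Adam12, which encodes a sheddase induced in mesenchymal cells and tumours, read 2.26, 2.50 and 1.44 (mean 2.07, SD 0.56, SE 0.65, adjusted p = 0.037). Its SE takes in 1 early array, primary 1 h replicate 2, which stood at 6.23, and the call ended without any 1 of the 3 arrays (adjusted p from 0.0551 to 0.278) and with array weights (0.0901). In ras cells at 48 h the Adam12 values were 1.70, 0.51, 2.20 and 1.13, all positive but not called (mean 1.38, adjusted p = 0.157). Adam9, a widely expressed sheddase gene, read 0.53, 0.97 and 1.12 in primary cells at 48 h (mean 0.87, SE 0.19, adjusted p = 0.00202), and held without each single array (adjusted p up to 0.0408). Its ras 48 h arrays lay around 0, at 0.14, 0.15, -0.10 and -0.16, and the difference between the cell types was not called.

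Adam6b, named as a testis ADAM gene, had a mean of -1.85 in ras cells at 24 h (SE 0.56, adjusted p = 0.0291) that rested on 2 arrays at -4.72 and -4.17 (replicates 3 and 5). The range was -4.72 to 0.12 with a median of -1.11, and leaving out replicate 1, 3 or 5 ended the call (adjusted p up to 0.155). Adam11, Adam15, Adam17, Adam2, Adam22, Adam23 and Adam8 were not called.

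Adamts1, which encodes a protease that cuts the proteoglycans versican and aggrecan, was the member most consistently below 0 on the Balb/c arrays. It was negative on 42 of the 45 forward Balb/c arrays and positive as deposited on all 5 reversed ones. On the forward Smad3 arrays at 48 h it read 0.46 in wild type and 0.39 in knockout primary cells. In ras cells of these genotypes it read -0.04 and 0.45. In Balb/c primary cells Adamts1 fell at 24 h, from -1.15 to -0.41 on 6 of 6 arrays with a median of -0.74 (mean -0.77, SE 0.205, adjusted p = 0.0453). At 6 h it was lower still, from -1.71 to 0.51 with a median of -0.84, and was not called (mean -0.87, adjusted p = 0.117). Without replicate 4, its only positive array, the 6 h mean was -1.10 (adjusted p = 0.00264).

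In ras cells Adamts1 fell at 6 h (-1.30 to 0.36, median -0.88, mean -0.69, SE 0.19, adjusted p = 0.0449) and at 24 h (-1.52 to -0.30, median -0.45, mean -0.63, SE 0.205, adjusted p = 0.0438). At 1 h all 12 arrays of both cell types were negative, with means of -0.59 in primary and -0.54 in ras cells, neither called. The 3 calls sat near the threshold. The 24 h call in primary cells ended without any single array of the 6 (adjusted p up to 0.249), the ras 6 h call without any of replicates 1, 2, 3, 4, 6 and 7 (up to 0.155) and the ras 24 h call without any of replicates 1, 2, 5, 6 and 7 (up to 0.281).

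Adamtsl2, an ADAMTS-like gene whose product lacks protease activity and binds latent TGF-β binding protein, fell in primary cells at 48 h with -1.43, -0.59 and -1.0 (mean -1.01, SE 0.28, adjusted p = 0.0185). The 2 reversed arrays were also negative as deposited, at -1.17 and -0.31, and with the reversed arrays turned the mean was -0.17 (adjusted p = 0.885). Its call ended without replicate 1 or 5 (up to 0.22). Adamts12, a metalloproteinase gene, had a mean of -1.27 at ras 24 h (adjusted p = 0.0427) that was -0.30 without replicate 1, which stood at -6.13 (adjusted p = 0.63). Without replicate 7 that call was also lost. Adamts4, Adamts5 and Adamtsl4 were not called, and the 2 probes of Adamts5 disagreed in primary cells at 48 h, at 1.03 (adjusted p = 0.0326) and -0.06.

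Of the 13 cathepsin genes 3 rose in primary cells at 48 h. Ctsl, a lysosomal cysteine protease gene of keratinocytes and many other cells, read 1.92, 2.11 and 0.95 (mean 1.66, SD 0.62, SE 0.27, adjusted p = 3.61e-05), the smallest adjusted p of any member, and held without each single array (up to 0.00589). The highest primary array at 24 h read 0.40, and 1 array at 6 h reached 0.98. Ctss, a cysteine protease of antigen-presenting cells, read 1.31, 2.70 and 1.04 (mean 1.68, SE 0.30, adjusted p = 0.000137, up to 0.0443 without a single array). It was positive on all 6 arrays at 24 h (0.12 to 1.12, median 0.49) but not called there (adjusted p = 0.21, and 0.00263 with array weights). Ctsz, which encodes a carboxypeptidase, read 2.18, 0.51 and 1.28 (mean 1.32, SE 0.26, adjusted p = 0.000614), and the call ended without replicate 1 (adjusted p = 0.0789).

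In ras cells none of the 3 was called at 48 h. Ctsl read 0.82, -0.05, 1.56 and -0.25, Ctss 0.21, 0.18, 0.98 and -0.64, and Ctsz 1.11, 0.93, 0.28 and 0.39. Ctsz was thus positive on all 4 arrays (mean 0.68, adjusted p = 0.077), while the other pair straddled 0.

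Ctsh, an aminopeptidase cathepsin gene, fell in primary cells at 24 h, from -1.09 to -0.38 on 6 of 6 arrays with a median of -0.50 (mean -0.59, SE 0.14, adjusted p = 0.0146), and at 48 h straddled 0 with -0.23, -0.61 and 0.25. The call ended without replicate 2 (adjusted p = 0.114). Ctsb, a major lysosomal cathepsin gene, had a mean of -2.0 at ras 24 h (adjusted p = 0.027) that was set by replicate 1 at -9.82: the other 5 arrays ran from -1.67 to 0.26, and without it the mean was -0.44 (adjusted p = 0.379). In primary cells at 48 h Ctsb read 0.75, 0.78 and 0.84, close together but not called with the fit's SE of 0.84, which takes in that outlying array (adjusted p = 0.661). The other 8 cathepsin genes were not called.

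Cstb, which encodes the intracellular cathepsin inhibitor cystatin B, rose beside the cathepsins in primary cells at 48 h, with 0.47, 1.16 and 1.20 (mean 0.94, SE 0.22, adjusted p = 0.00416). Leaving out replicate 2 or 5 ended the call (adjusted p up to 0.0887), and both reversed arrays were positive as deposited, at 0.53 and 0.004, so that with them turned the mean was 0.38 (adjusted p = 0.2). In ras cells Cstb was positive on all 7 arrays at 6 h (0.20 to 0.84, mean 0.51, adjusted p = 0.0557) but not called. Cst3, Cst7 and Cst9 were not called.

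In plasminogen activation, the urokinase receptor gene Plaur, whose product holds urokinase on the cell surface, rose in primary cells at 48 h. Its arrays read 1.40, 2.15 and 0.19 (mean 1.25, SD 0.99, SE 0.29, adjusted p = 0.00413), with replicate 5 well below the others. Without replicate 1 or 2 the call was lost (adjusted p up to 0.269). Plaur was positive on 38 of 45 forward Balb/c arrays and negative as deposited on all 5 reversed ones. In ras cells it was positive on 7 of 7 arrays at 6 h (0.22 to 0.69, mean 0.42, adjusted p = 0.358, and 0.0246 with array weights) and read 0.37, 0.90, 1.84 and -0.11 at 48 h (mean 0.75, adjusted p = 0.0828). Plat was not called in any response. Urokinase itself, Plau, which is no member, rose at ras 24 h (mean 0.91, adjusted p = 0.0027).

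Upstream sequence was examined for members that moved, with 2 motifs. TGANTCA, here called AP-1 letters, is a loose form of the AP-1 element that takes any middle base. The usual form has C or G there, so the counts take in more than that element. CAGAC is the SMAD-binding element (GTCTG on the other strand). The window was the 250 bases before a listed transcript start, from RefSeq on GRCm38.p6, and 60 of the 79 members had a promoter there. AP-1 letters were found in 8 of those 60 (13.3%, beside 7.82% of 27025 genes) and SMAD letters in 34 (56.7%, beside 45.8%). Of the 16 called members with a promoter, 3 held AP-1 letters and 9 SMAD letters. Windows of 4 genes are shown, for 2 members that rose in primary cells at 48 h (Plaur and Serpinf1) and 2 that fell in primary (Serpinb5) or ras cells (Klk7). The Plaur window ends at an internal start, 1546 bases inside the gene's outer end, while those of the other 3 genes end at the outer end. Capitals mark the motifs. A match is a description of letters only.

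Plaur, chr7:24462233-24462482, + strand: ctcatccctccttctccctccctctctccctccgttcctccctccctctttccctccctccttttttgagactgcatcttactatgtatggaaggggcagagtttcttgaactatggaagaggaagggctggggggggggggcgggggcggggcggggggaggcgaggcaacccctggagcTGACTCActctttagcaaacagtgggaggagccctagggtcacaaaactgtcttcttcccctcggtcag

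Serpinf1, chr11:75422624-75422873, - strand: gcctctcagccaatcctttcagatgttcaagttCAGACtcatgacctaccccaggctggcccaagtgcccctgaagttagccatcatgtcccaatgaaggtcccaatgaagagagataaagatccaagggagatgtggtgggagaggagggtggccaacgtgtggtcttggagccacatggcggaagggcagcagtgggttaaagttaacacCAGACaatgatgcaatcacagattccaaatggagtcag

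Serpinb5, chr1:106860925-106861174, + strand: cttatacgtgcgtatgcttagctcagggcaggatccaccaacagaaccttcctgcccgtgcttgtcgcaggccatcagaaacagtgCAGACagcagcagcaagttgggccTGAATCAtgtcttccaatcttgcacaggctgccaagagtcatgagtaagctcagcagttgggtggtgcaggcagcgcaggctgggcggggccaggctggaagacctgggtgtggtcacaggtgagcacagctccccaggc

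Klk7, chr7:43811044-43811293, + strand: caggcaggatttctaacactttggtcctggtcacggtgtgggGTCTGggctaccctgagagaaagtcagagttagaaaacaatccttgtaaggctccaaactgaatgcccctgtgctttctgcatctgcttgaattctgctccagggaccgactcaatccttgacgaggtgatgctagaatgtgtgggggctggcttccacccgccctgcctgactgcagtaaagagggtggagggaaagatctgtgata

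The AP-1 letters lie 69 bases before that internal start in Plaur, as TGACTCA. In Serpinb5, a gene that moved the other way, they lie 140 bases before the start, as TGAATCA, outside the usual form. SMAD letters lie 217 and 38 bases before the start in Serpinf1, 164 in Serpinb5 and 208 in Klk7, and none are in the Plaur window.

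Of the 13 serpins, Serpinf1 rose. It encodes pigment epithelium-derived factor, a serpin that inhibits no protease and restrains blood vessel growth. At primary 48 h it read 2.22, 1.30 and 1.45 (mean 1.66, SD 0.50, SE 0.29, adjusted p = 0.000134, up to 0.0128 without a single array). In ras cells it rose at 24 h, positive on all 6 arrays from 0.28 to 1.50 with a median of 0.66 (mean 0.74, SE 0.21, adjusted p = 0.0193). That call ended without replicate 1 (adjusted p = 0.131) and was kept with array weights. At 48 h in ras cells the values were 1.48, -0.63, 0.86 and -0.05, on both sides of 0.

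Serpinb5, which encodes maspin, an epithelial serpin with no protease inhibition of the usual kind and a known tumour suppressor, moved the other way. In primary cells it was negative on 6 of 6 arrays at 24 h, from -1.21 to -0.48 with a median of -0.66 (mean -0.72, SE 0.17, adjusted p = 0.0125). At 48 h it read -0.67, -2.20 and -0.65 (mean -1.17, SE 0.24, adjusted p = 0.000772). The reversed arrays at 48 h gave 3.08 and 1.09 as deposited. Without replicate 1 or 6 the 24 h call ended (adjusted p up to 0.081), and without replicate 2 the 48 h mean was -0.66 (adjusted p = 0.189). In ras cells Serpinb5 was negative on 6 of 6 arrays at 24 h (-0.98 to -0.15, median -0.46) and was not called (adjusted p = 0.0586).

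Serpina3n, an acute-phase serpin gene related to human antichymotrypsin, rose in ras cells early and fell in primary cells late. In ras cells it rose at 6 h, from -0.21 to 1.68 with a median of 1.07 and 6 of 7 arrays at 0.69 or above (mean 0.99, SE 0.19, adjusted p = 0.00224). This was 1 of 6 calls among 44 that held without every single array of its groups (adjusted p up to 0.0223), and 1 of 4 that held when the group was fitted on its own arrays. It was positive on all 6 ras arrays at 1 h (0.27 to 0.77) without a call, and straddled 0 at 48 h with 0.08, -0.28, -0.43 and 0.72. In primary cells at 48 h it fell, with -0.96, -1.84 and -0.07 (mean -0.96, SE 0.29, adjusted p = 0.0289), and leaving out replicate 1 or 2 ended this call (adjusted p up to 0.552). Between 6 and 48 h the primary response fell by 1.31 (adjusted p = 0.0245). The remaining 9 serpins other than Serpina6, described with the Smad3 arrays, were not called.

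**Figure D3:**
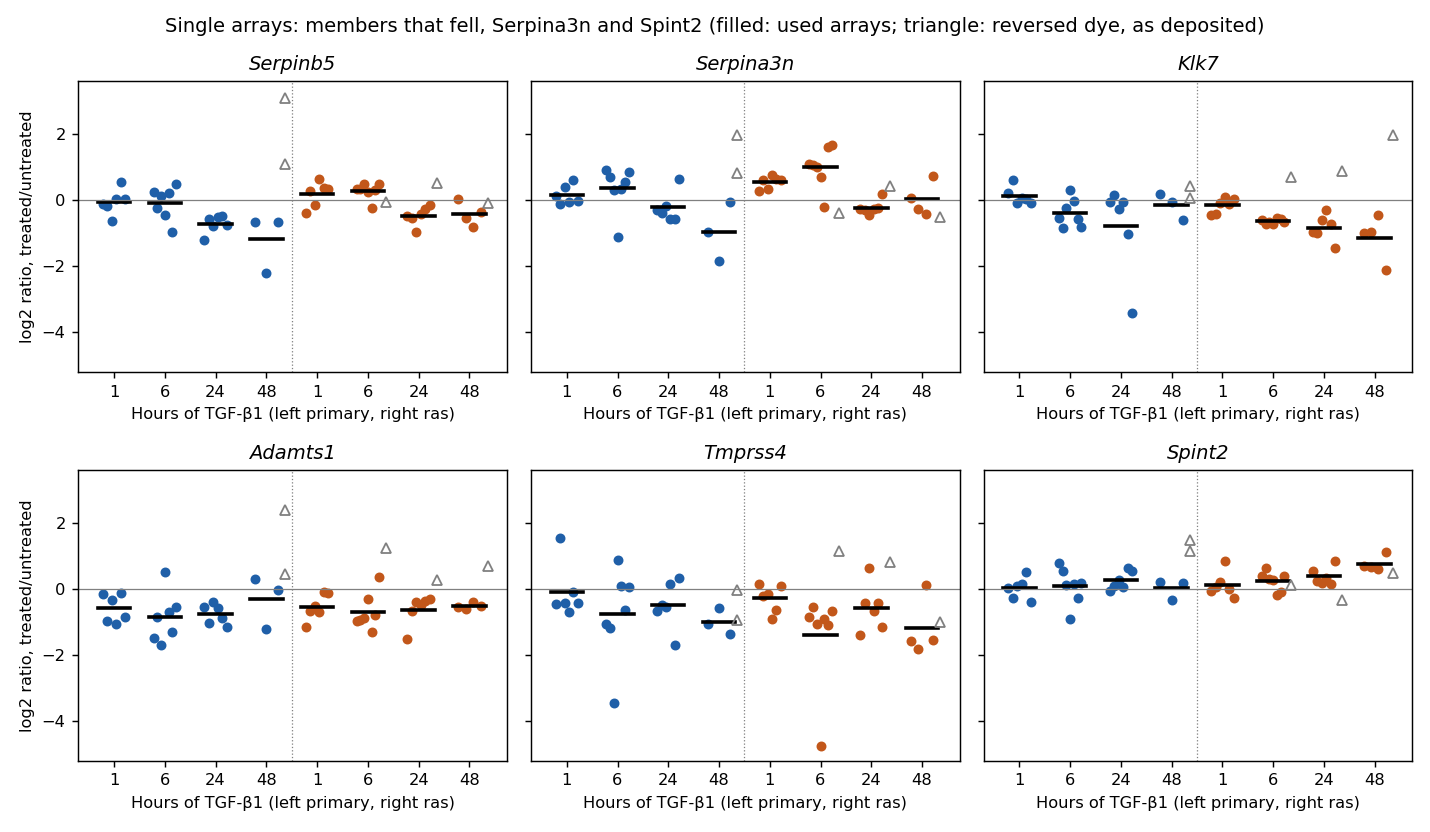
Log2 ratios of single arrays for Serpinb5, Serpina3n, Klk7, Adamts1, Tmprss4 and Spint2 by hours of TGF-β1 in primary (blue) and ras (orange) keratinocytes. Filled points are arrays in use, bars their mean, and open triangles arrays with reversed dyes as deposited. The 7 ras 6 h points of Klk7 lie between -0.72 and -0.53, and 1 ras 6 h point of Tmprss4 lies apart at -4.74.

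The called serine proteases fell, with calls in ras cells, and the mean of Klk7 was nearly as low in primary cells at 24 h. Klk7, the stratum corneum chymotryptic enzyme gene, fell at 24 h (-1.44 to -0.30 on 6 of 6 arrays, median -0.83, mean -0.84, SE 0.24, adjusted p = 0.023) and at 48 h, with -1.01, -0.96, -0.46 and -2.11 (mean -1.14, SE 0.30, adjusted p = 0.0243). At 6 h its 7 arrays lay tightly between -0.72 and -0.53 without a call (mean -0.64, SD 0.07, adjusted p = 0.164, 0.00271 with array weights, and 0.00757 on its own 7 arrays). Its 2 probes gave -0.89 and -0.78 at 24 h and -1.10 and -1.17 at 48 h, so they ran together. The reversed ras arrays were positive as deposited at 6, 24 and 48 h (0.69, 0.87 and 1.96). Leaving out replicate 1 or 7 ended the 24 h call (adjusted p up to 0.0833), and leaving out replicate 1 or 4 the 48 h call (up to 0.15). In primary cells at 48 h Klk7 straddled 0, at 0.18, -0.07 and -0.59, and at 24 h it ran from -3.41 to 0.15 with a median of -0.17 (mean -0.78, SE 0.24, adjusted p = 0.106). Its 2 probes at primary 24 h gave -0.73 and -0.82, and the second was called when each probe was fitted alone (adjusted p = 0.0381). With the reversed arrays turned the primary 24 h mean was -0.97 (adjusted p = 0.0283).

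Klk12, a neighbouring kallikrein gene, had a mean of -0.71 at ras 24 h (SE 0.18, adjusted p = 0.0113) and was negative on all 6 arrays, but replicate 1 stood at -2.14, and without it the mean was -0.42 (adjusted p = 0.149). At 48 h it was negative on all 4 ras arrays (-0.39, -0.60, -1.46 and -0.14, adjusted p = 0.0825). A run of 6 members, Klk12, Klk8, Klk7, Klk6, Klk5 and Klk4, lie together on chromosome 7 among 9 coding genes. Of the 7 kallikrein members 6 had negative means at ras 48 h, from -1.97 to 0.09 with a median of -0.55, and 1 was called. Of all 79 members 49 had negative means there, and the share of all features was not counted. The lowest, Klk4 at -1.97, rested on 1 array at -6.98.

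Tmprss4, a membrane serine protease gene of epithelial tumours, fell at ras 6 h on 7 of 7 arrays, from -4.74 to -0.55 with a median of -0.91 (mean -1.41, SE 0.37, adjusted p = 0.0309). Without replicate 4, at -4.74, the mean was -0.85, and the call ended without any of replicates 1, 3, 4, 7 and 8 (adjusted p up to 0.222). At primary 48 h it was negative on all 3 arrays (-1.06, -0.59 and -1.36) and not called (adjusted p = 0.3), and at ras 48 h it read -1.57, -1.81, 0.12 and -1.54 (adjusted p = 0.154). Prss16, a serine protease gene best known in the thymus, had a mean of -0.85 at ras 24 h (-2.01 to 0.40, median -0.71, adjusted p = 0.0314), lost when replicate 1, 3 or 7 was left out (adjusted p up to 0.228) or with array weights (0.374). Tmprss2 and the other 6 Prss genes were not called.

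Among the inhibitors of such serine proteases Spint2 rose. It encodes a Kunitz inhibitor of hepatocyte growth factor activator and membrane serine proteases. In ras cells at 48 h it read 0.69, 0.66, 0.60 and 1.10 (mean 0.76, SD 0.23, SE 0.18, adjusted p = 0.0152). The 3 primary 48 h arrays read 0.20, -0.34 and 0.18, and the difference between the cell types was not called. Its reversed arrays were also positive as deposited, 0.49 in ras and 1.48 and 1.15 in primary cells, and with the reversed arrays turned the ras mean was 0.28 (adjusted p = 0.776). Leaving out replicate 1 or 4 ended the call (adjusted p up to 0.0712). The related Spint1 was positive on all 4 ras 48 h arrays (0.15 to 0.79, adjusted p = 0.113), Slpi was negative on all 3 primary 48 h arrays (-1.22 to -0.48, adjusted p = 0.111), and neither was called. The convertase genes had no call. Pcsk1n, an inhibitor of proprotein convertase 1, reached a mean of -0.37 at ras 24 h (SE 0.16, adjusted p = 0.144).

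Within primary cells the change from 6 to 48 h was called for 8 members, 10.1% beside 2.74% of all features (1.85% higher and 0.887% lower). The response rose by 2.32 for Mmp9 (SE 0.62, adjusted p = 0.0274), 1.52 for Serpinf1 (0.00901), 1.51 for Ctsl (0.00371), 1.41 for Ctss (0.0191), 1.15 for Ctsz (0.0317) and 0.92 for Adam9 (0.0171). It fell by 1.31 for Serpina3n (0.0245) and 1.09 for Serpinb5 (0.0223). The count was 4 without primary 48 h replicate 1 and 2 without replicate 2. In ras cells 0 members were called between 6 and 48 h (0.0337% of all features, with 6 members and 7.11% of all features at an unadjusted p under 0.05). Between 1 and 24 h 0 were called in primary cells (0.168% of all features, with 9 members and 4.56% of all features at an unadjusted p under 0.05) and 0 in ras cells (1.08%, with 16 members and 17%).

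The ras and primary responses were then compared at each time. No member was called with limma at 1, 6, 24 or 48 h, beside 0%, 0%, 0.0449% and 0.202% of all features, and 2, 4, 12 and 11 members reached an unadjusted p under 0.05, beside 4.17%, 4.59%, 10.3% and 6.67% of all features. At 48 h the response in ras cells was lower than in primary cells by 1.50 for Ctss (difference -1.50, 95% interval -2.29 to -0.70, adjusted p = 0.112), with -1.24 for Serpinf1 (-2.02 to -0.46, 0.2), -1.14 for Ctsl (-1.85 to -0.43, 0.2) and -0.87 for Adam9 (-1.37 to -0.36, 0.168). Without ras 48 h replicate 3, or without primary 48 h replicate 5, Ctss and Ctsl were called (adjusted p from 0.028 to 0.0475). For Mmp9 the difference was -0.93 with an interval from -2.32 to 0.45, which spans 0. The genes given at 48 h here and below had been called at 48 h in at least 1 cell type on these same arrays. That choice favours differences away from 0, and the intervals take no account of it.

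Differences in the other direction at 48 h were 0.98 for Serpina3n (0.21 to 1.75, adjusted p = 0.466), 0.75 for Spint2 (0.19 to 1.31, 0.403) and 0.75 for Serpinb5 (0.12 to 1.38, 0.531). Mmp14 had a difference of 0.04 (-0.51 to 0.59). At 6 h Serpina3n differed by 0.63 (0.09 to 1.17, adjusted p = 0.989, and 0.022 with array weights). At 24 h the lysosomal aspartic protease gene Ctsd differed by 0.71 (0.24 to 1.18, adjusted p = 0.421, and 0.0171 with array weights).

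**Figure D4:**
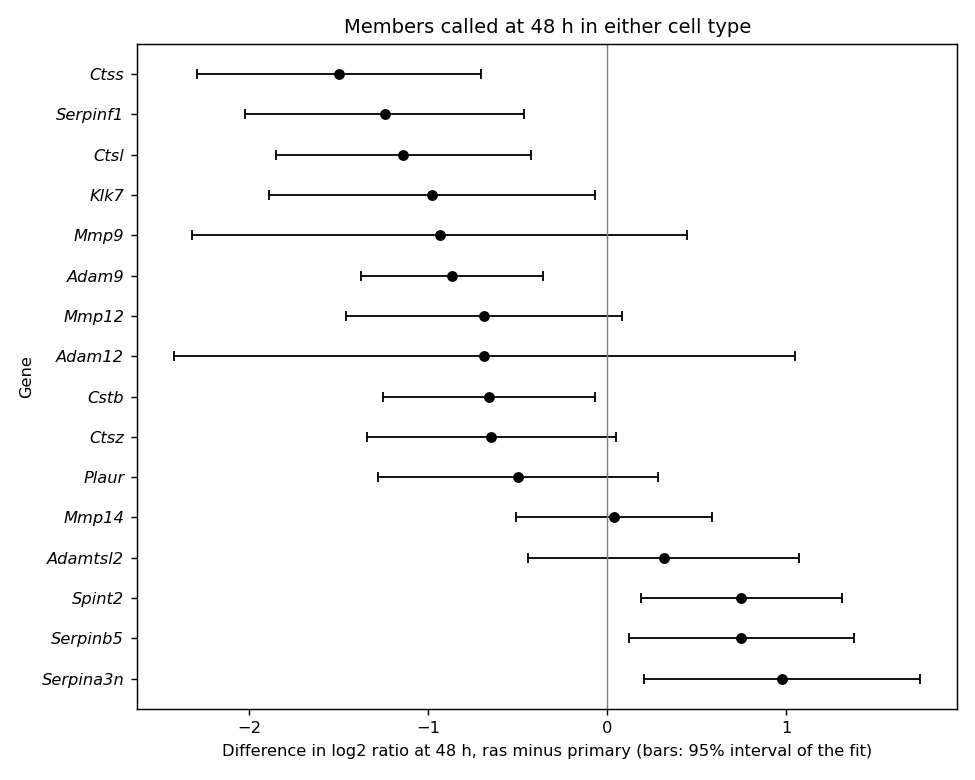
Difference in mean log2 ratio at 48 h, ras minus primary keratinocytes, for the members called at 48 h in either cell type, with the 95% interval of the fit as bars. The same arrays gave those calls, which favours differences away from 0, and the intervals do not allow for it. Ctss (-1.50) and Serpinf1 (-1.24) lie lowest and Serpina3n (0.98) highest, and no difference had an adjusted p under 0.05.

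The Smad3 arrays give 1 value per genotype and cell type. In wild type primary cells at 48 h 10 of the 11 members that rose in Balb/c primary cells were positive, with a median of 0.64, and in knockout primary cells 8 were positive, with a median of 0.23. The knockout value was the lower one for 8 of the 11. Over all 455 features that rose in Balb/c primary cells 79.6% were positive in wild type and 72.5% in knockout cells, and 54.1% were lower in the knockout. Of the 3 members that fell in Balb/c primary cells 1 was negative in wild type (median 0.16) and 2 in knockout cells (median -0.18). Over all 311 features that fell there 54.7% were negative in wild type and 48.9% in knockout cells. The 3 that rose in Balb/c ras cells were positive on both ras arrays, with the higher median in the knockout (0.39 in wild type and 0.52 in knockout cells). Over all 169 features that rose in Balb/c ras cells 79.9% were positive in wild type and 79.3% in knockout cells. Mmp9 read 1.39 in wild type and 0.53 in knockout primary cells, and 1.20 and 0.77 in ras cells. Adam12 read 1.16 and -0.07 in primary cells, then 1.15 and 0.25 in ras cells. Ctsl read 1.41 and 0.41, then 0.96 and 0.19, and Plaur 1.03 and 0.03, then 0.35 and 0.20. Adam9 read 0.56 and 0.03 in primary cells and lay at 0 and -0.16 in ras cells. These 5 of the 11 genes were lower in the knockout in both cell types, but the differences averaged over the cell types were not called (Ctsl -0.89, 95% interval -1.82 to 0.05, adjusted p = 0.817). The share of the 455 features lower in both cell types was not counted, so the 5 have no background to be read against.

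Mmp14 did not follow them, with 0.64 in wild type and 1.40 in knockout primary cells and 0.35 and 0.30 in ras cells. Ctss and Mmp12, which rose in Balb/c primary cells, stood at 0.20 and -0.19 in wild type Smad3 primary cells. The reversed knockout arrays were opposite in sign to the forward ones for Mmp9 (-0.82 in primary and -1.17 in ras cells as deposited) and had the same sign for Ctsl (0.60 and 0.86) and Plaur (0.19 and 0.32). Over all features each reversed knockout array as deposited correlated positively with its forward partner (r 0.48 in primary and 0.41 in ras cells). A sign already turned and a dye effect shared by the arrays would both give this, and neither was tested. Signs on the knockout arrays may thus not be TGF-β1 responses alone.

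Serpina6, the gene of the serpin that carries corticosteroids in blood, was the only member called between genotypes (knockout minus wild type 2.48, SE 0.52, adjusted p = 0.00251, beside 1.74% of all features, 0.438% higher). That value comes from 1 array: the knockout primary array read 5.23, while the wild type primary array read -0.78, the reversed knockout primary array -0.81, and the ras arrays -0.48 in wild type and -1.53 in knockout cells. From the ras arrays alone, without either primary array, the difference was -1.05 (adjusted p = 1). Klk5, a kallikrein gene of the epidermis, had the next smallest p (1.36, 95% interval 0.57 to 2.15, adjusted p = 0.0623, and 0.00194 with array weights). Its knockout primary array read 1.44 and the reversed one -0.44.

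**Figure D5:**
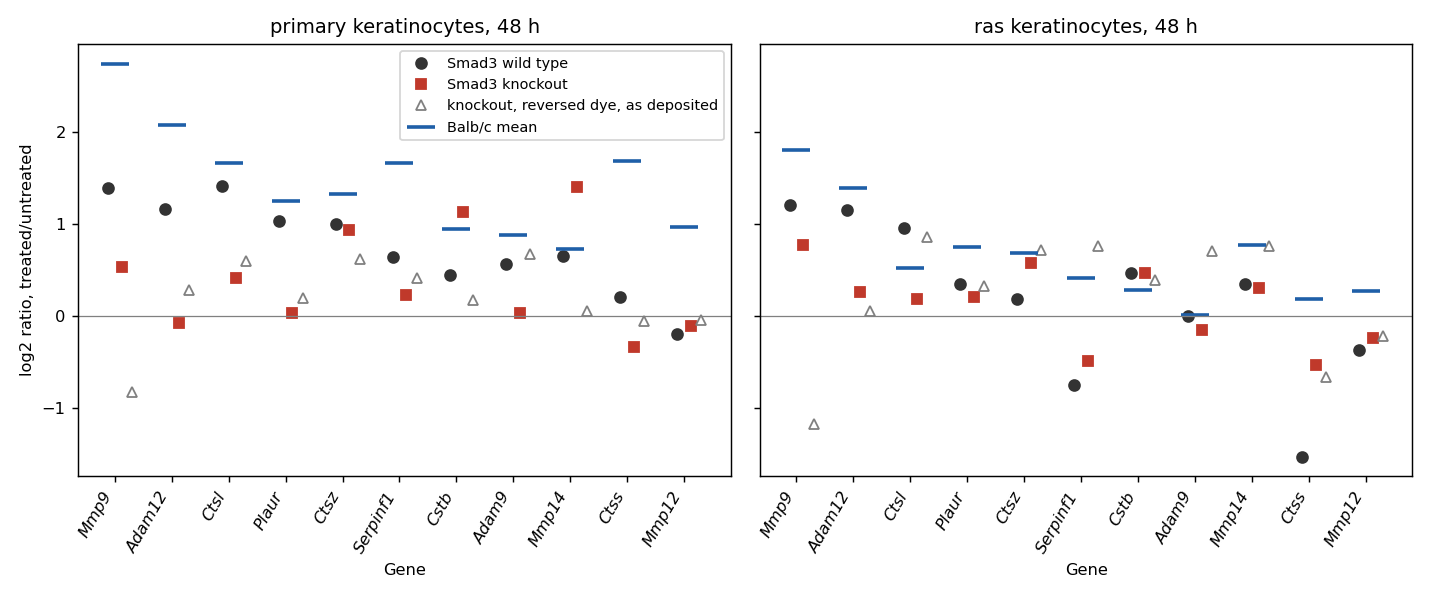
Log2 ratios after 48 h of TGF-β1 on the single Smad3 wild type (black circles) and knockout (red squares) arrays of primary (left) and ras (right) keratinocytes, for the 11 members that rose in Balb/c primary cells at 48 h. Blue dashes are Balb/c means and open triangles knockout arrays with reversed dyes as deposited. Mmp9, Adam12, Ctsl, Plaur and Adam9 lie lower in the knockout in both panels.

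Markers of other cell types moved in the same primary 48 h arrays. Fewer cells of a type and less RNA per cell cannot be told apart in such ratios. Of 10 measured myeloid markers 3 rose and 0 fell, 30% beside 8.6% of all features called there. The 10 means ran from -0.70 to 2.59 (median 0.35), 7 of them above 0 and 3 below. The called Lyz2, the lysozyme gene of macrophages and neutrophils, read 2.74, 3.12 and 1.89. Tyrobp read 1.20, 1.23 and 0.59, and Fcer1g 0.12, 1.40 and 0.78. The mean of the myeloid list ran from 0.18 to 0.86 over the 3 arrays, highest in replicate 2, and from -0.25 to 0.17 in ras cells at 48 h. Of the 11 members that rose in primary cells at 48 h 6 were highest in replicate 2 (Mmp9, Adam12, Ctsl, Ctss, Mmp12 and Plaur), 3 in replicate 1 and 2 in replicate 5. In replicate 2, 2 were lowest (Ctsz and Serpinf1). The same count over all 455 features that rose was not made, so no background stands beside it. Of 8 fibroblast markers 3 rose (Col1a2, Mfap5 and Twist1, means 1.83, 1.77 and 1.28), which is 37.5%, and 2 had means below 0 (lowest -0.66). The fibroblast list means ran from 0.60 to 0.92 in primary and -0.48 to 0.43 in ras cells. On the wild type Smad3 primary array the list means were -0.14 for myeloid and 0.11 for fibroblast markers. Of 9 keratinocyte markers 2 fell (Trp63 and Krt15, means -1.01 and -1.02), which is 22.2%, and 2 had means above 0 (highest 0.31). Of 4 endothelial, 4 mast cell and 2 melanocyte markers none was called there, with medians of -0.45, 0.02 and 0.76.

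Markers moved in other groups as well. Lyz2 rose at primary 24 h (mean 0.91), at ras 24 h (mean 0.54) and at ras 48 h, where it read 1.24, 0.72, 1.52 and 0.35. At ras 24 h the myeloid genes Itgam and Mrc1 and the melanocyte gene Sox10 fell (means -2.03, -3.41 and -1.59), and the array mean of the myeloid list ran from -2.32 in replicate 1 to 0.16. The mast cell gene Tpsb2 fell at ras 48 h (mean -1.07). The keratinocyte genes Lamb3 at ras 6 h and Itgb4 at ras 24 h rose (means 1.02 and 0.51). In ras minus primary cells at 48 h, Lyz2, Mfap5 and Twist1 were lower (-1.63, -1.44 and -1.21, adjusted p from 0.0166 to 0.0438), beside 0.202% of all features called. Of the 10 myeloid markers 3 had differences above 0 there, and of the 8 fibroblast markers 2. The differences of Ctss, Ctsl and Serpinf1 there were negative but not called. Ratios carry no level, so presence of these cells could not be read, and the part of these markers in the member responses was not tested.

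A list of 39 related genes outside the members, 28 of them measured, also moved at these times. In primary cells 2 rose and 1 fell at 24 h, and 6 rose and 3 fell at 48 h, which is 10.7% and 32.1% of the 28 beside 1.36% and 8.6% of all features. In ras cells 2 rose at 6 h, 8 rose at 24 h, and 2 rose and 1 fell at 48 h, which is 7.14%, 28.6% and 10.7% beside 1.73%, 10.5% and 3.5%. The list was made with earlier results of these data known. The metalloproteinase inhibitor gene Timp1 read 2.68, 3.11 and 2.21 in primary cells at 48 h (mean 2.66, adjusted p = 6.93e-07), beside Mmp9, and the gelatinase gene Mmp2 1.98, 1.79 and 1.72. Ctla2a, which encodes an inhibitor of cysteine cathepsins, rose beside Ctsl in primary cells at 48 h (mean 2.02, adjusted p = 6.98e-05). Bmp1, a procollagen-cutting protease gene, rose in primary cells at 48 h and ras cells at 24 h (0.74 and 0.70). Serpinb2, an inhibitor of plasminogen activators, fell in primary cells at 48 h (mean -1.45, adjusted p = 9.12e-05), where Plaur rose, and Plg, the plasminogen gene, had a mean of -1.45 that rested mainly on 1 array at -3.63.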

How the data were processed

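Arrays with 2 colours gave 1 ratio for each of 9596 probes on 56 arrays. The deposited values were treated as log2 ratios of treated over untreated RNA, as made by the authors; log base, background correction and normalization were not given in the sources used here. The 49 arrays of one dye orientation were centred on their median (-0.146 to 0.02 before centring over all arrays) and probes of 1 gene symbol were averaged, giving 8905 features. Of the probes 7486 had 1 symbol, 483 several and 1627 none listed.

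All 12 groups entered 1 fit (lmFit and eBayes of limma 3.58.1, R 4.3.3, 37 residual degrees of freedom), checked on simulated data. Tests were two-sided and Benjamini-Hochberg adjusted over all features. A call is an adjusted p under 0.05. The number of arrays limits the precision. Alternatives changed centring, scaling, array weights, probe averaging, blocks, reversed arrays and each single array.

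Members and lists were chosen with earlier results of these data known. Named are all called members and, in a role group without a call, the member with the largest mean response; Slpi, Spint1, Klk4, Klk5, Ctsd, Plat and the list of members without a call were named after their values were seen. Most same-numbered ras and primary arrays did not deviate together (5 of 19 pairs over 0.1, range -0.232 to 0.39). The highest value, 0.39, was that of replicate 1 at 48 h. Replicate numbers need not mark shared cultures, and arrays of neighbouring experiment numbers were not tried as pairs. Whether ras and primary arrays are paired was thus not settled.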

Additional observations from a re-analysis of the deposited data

Results flagged for a closer look

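In 5 of the 21 group and gene combinations tested, 1 array stood far from the rest of its group by Dixon's criterion, which chance alone meets in about 1 of 20. Ctsb at ras 24 h stood at -9.82 in replicate 1 (others -1.67 to 0.26), Adamts12 at -6.13 (others -0.77 to 0.61), Klk12 at -2.14 (others -0.70 to -0.07) and Adamts1 at -1.52 (others -0.68 to -0.30), all on that same array, the widest of the series (SD 1.81). Tmprss4 at ras 6 h stood at -4.74 in replicate 4 (others -1.08 to -0.55).

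The TGF-β1 response of Serpina6 differed between Smad3 genotypes by 2.48 (limma, adjusted p = 0.00251), through 1 knockout primary array at 5.23. The reversed array of the same group read -0.81.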

How the results depend on the processing

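Of 44 calls of single members 6 were kept without each single array: Mmp9, Ctsl, Ctss, Serpinf1 and Adam9 at primary 48 h and Serpina3n at ras 6 h. Across settings 43 were kept with each probe fitted alone, 42 without centring, 36 with array weights, 34 with blocks of experiment numbers as a random term, 34 without the 2 widest arrays, 26 with a dye term and the reversed arrays turned, 22 with arrays scaled to 1 spread, 4 of 43 on own arrays only, and 3 with reversed arrays as deposited. The cause of these losses was not tested, and fewer arrays entered the fits on own arrays. The setting with reversed arrays as deposited is apt only if their sign had already been turned, and the turned setting only if it had not. With reversed arrays as deposited the sign turned for Serpina3n (0.01) and Serpinb5 (0.23) at primary 48 h and Adamts1 at ras 6 h (0.01), and without either Smad3 primary array Serpina6 was -1.05 (leaving out single arrays gave -1.05 to 6.02).

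Counts of called members moved as follows. At primary 24 h the 3 became 8 with array weights, 7 with scaling or turned arrays, and 0 with number blocks, own arrays or reversed arrays as deposited. At primary 48 h the 14 became 9 with scaling, 7 with reversed arrays as deposited and 0 on own arrays, and the 8 of primary 48 h minus 6 h became 2, 0 and 3. At ras 6 h the 4 became 16 with weights, 8 with scaling, 2 with number blocks and 0 with reversed arrays as deposited. At ras 24 h the 10 became 3 with weights, 1 with scaling or turned arrays, and 0 on own arrays, with reversed arrays as deposited or without the 2 widest arrays. At ras 48 h the 4 became 6 without the 2 widest arrays, 2 with turned arrays and 0 on own arrays or with reversed arrays as deposited. The 1 of the Smad3 contrast became 2 with weights, number blocks or without the 2 widest arrays, and 0 with scaling or either use of reversed arrays. Counts of 0 became 1 at primary 6 h (weights, scaling, turned arrays), 3 with weights and 1 with turned arrays at ras 1 h, 1 at 6 h and 2 at 24 h with weights for ras minus primary, 1 at 48 h with turned arrays or without the 2 widest arrays, 1 with weights for primary 24 h minus 1 h, and 7 with weights and 1 with number blocks for ras 24 h minus 1 h.

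Leaving out single arrays gave 1 to 3 calls at primary 24 h, 7 to 11 at primary 48 h, 2 to 8 for primary 48 h minus 6 h, 1 to 3 at ras 6 h, 0 to 12 at ras 24 h, 0 to 5 at ras 48 h, 0 to 2 for ras minus primary 48 h, and 0 to 1 at primary 6 h (1 without replicate 4), for ras 24 h minus 1 h and for Smad3. With the replicate number as a block, ras minus primary gave 0 calls at each time, as without it. Most same-numbered arrays did not deviate together, but pairing by other keys was not tried. Ratios carry no signal levels, so signal over background is unknown.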
